A study of Mus musculus with 2 samples.

Results

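PML nuclear bodies are protein assemblies of the cell nucleus, and the RNA of 6 of their components was examined: Pml, Sp100, Sp110, Sp140, Daxx and Atrx. The genes were taken by symbol, and all 6 had a row among the 26082 genes measured in both libraries. RNA had been sequenced from primary fibro-adipogenic progenitors (FAPs), the mesenchymal cells of skeletal muscle that can become adipocytes. The cells were wild type and, by the study's methods, were sorted from hind limb muscle of C57BL/6 mice; no age is given in their labels. In 1 condition FAPs received TGFBR3 overexpressing plasmids, and in the other they received the vector. FAPs of both conditions were under adipogenic differentiation in medium with insulin (10 µg/ml), dexamethasone (0.25 µM), IBMX (0.5 mM) and fetal bovine serum (20%), so no undifferentiated culture entered the comparison. Each condition was 1 library of transfected primary cells. No spread between cultures could be measured, and every interval below covers counting error alone.

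In textbook accounts, PML is the scaffold of the bodies: it is modified by SUMO, a small ubiquitin-like protein, and gathers partners that carry SUMO or bind it. SP100, SP110 and SP140 are related proteins with a SAND domain, a fold that binds DNA or chromatin, and SP100 is a founding resident of the bodies. DAXX is a chaperone of histone variant H3.3 and ATRX is the chromatin remodeller that works with it, and both hold repeats and viral genomes silent. Pml and the Sp100 family are known to be induced by interferons, which act through transcription factors that include STAT2 and IRF9, and the bodies are known for restricting DNA viruses.

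The targeted gene was read first, as a check of the labels. Tgfbr3, a co-receptor for TGF-β, had a level of 36.9 FPKM (fragments per kilobase of exon and per 1000000 fragments) in the library labelled TGFBR3 overexpression, below called the TGFBR3-labelled library. In that of the vector, the vector-labelled library, it had 35.1 FPKM. Its log2 ratio of (FPKM + 1) was 0.07 (95% interval 0.04 to 0.10), and -0.08 once the ratios were centred on the median gene. Tgfbr3 RNA was thus not raised beyond the median gene, and every direction below is that of the labels. The study also lists an RT-PCR measurement of TGFBR3 after transfection of the plasmids. Whether RNA from the plasmid would be counted on mouse Tgfbr3 is not given in the sources used here. The counts summed to 62321027 and 83779203. Where both libraries reached 1 FPKM, in 10626 genes, the median log2 ratio was 0.15, so a gene at the median already stood above 0. The 6 FAP markers ranged from 16.4 to 1013 FPKM. Pdgfra was at 30.5 and 32.6 FPKM in the TGFBR3-labelled and vector-labelled library, Pdgfrb at 88.9 and 94.3, Cd34 at 20.6 and 25.7 and Col1a1 at 467 and 870, while Ly6a, at 1013 and 706, and Dcn, at 18.2 and 16.4, were higher in the former.

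All 6 genes had a higher level in the TGFBR3-labelled library, and the 3 Sp100 family genes differed most. Of genes whose mean of both libraries reached 1 FPKM, 63.1% were higher there, or 51.4% once centred on the median gene. On the log2(FPKM + 1) scale, 4 of the 6 were at least 2-fold higher (Sp100, Sp110, Sp140 and Pml) and 0 were at least 2-fold lower. Over all 26082 genes, 1.41% were at least 2-fold higher and 0.475% at least 2-fold lower. Where the mean of both libraries reached 1 FPKM, in 11213 genes, the share higher was 3.14%, and 5 of the 6 members were in that set. The added 1 damps the ratios of genes at low levels. By the plain FPKM ratio 5 of the 6 members were at least 2-fold higher, Atrx being the additional gene, against 13.8% of 17471 genes with at least 10 counts in either library and an FPKM above 0 in both. Because RNA of whole cultures was measured, fewer cells of a type and less RNA per cell cannot be told apart.

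**Figure D1:**
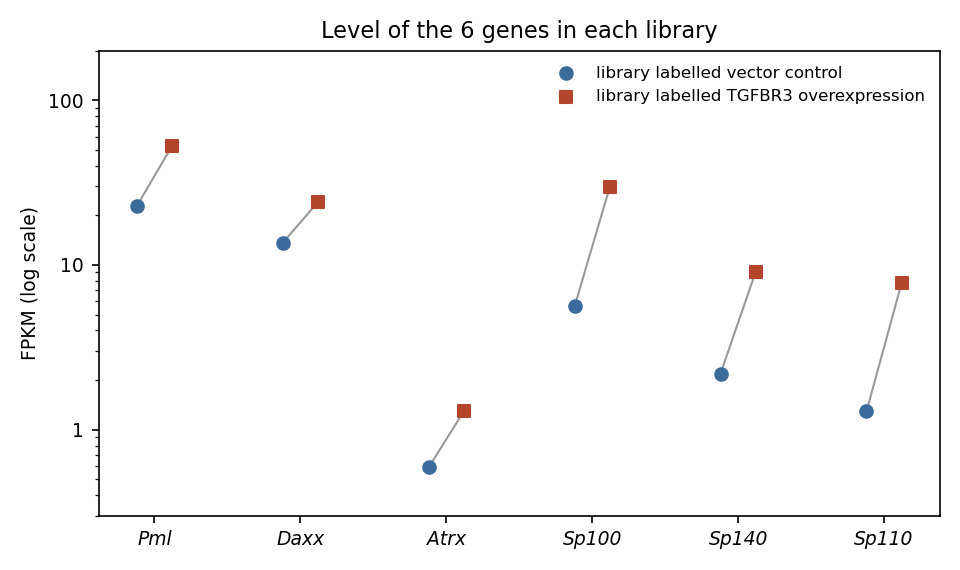
Level of each of the 6 genes in each library, in FPKM on a log scale, with a grey line joining the libraries of each gene; there is 1 library per condition, so no error bars are drawn. All 6 lines rise from the vector-labelled library to the TGFBR3-labelled library, from 5.62 to 29.6 FPKM for Sp100 and from 13.7 to 24.1 FPKM for Daxx.

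Pml, the scaffold gene, is ENSMUSG00000036986 and lies on the minus strand at chr9:58218076-58249786 of mm10. It was the member with the highest FPKM in both libraries, at 52.7 in the TGFBR3-labelled library and 22.8 in the vector-labelled library, from 19907 and 11757 counts. Its level was 2.31-fold higher (95% interval 2.25 to 2.36), a log2 ratio of (FPKM + 1) of 1.17 (1.14 to 1.20), and 241 genes had a larger one. The call at 2-fold was a close one: centring on the median gene gave 1.02, removing the trend of the ratios over exon length gave 0.99, and dividing counts by median-of-ratios size factors and by length gave 0.93. Removing the GC trend left it at 1.17. The genes beside Pml on the chromosome did not share its ratio. Stoml1, 3378 bases away, had a log2 ratio of 0.14, Islr had -0.06 and Loxl1, which encodes a cross-linking enzyme of elastic fibres, had -0.29.

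Sp100 is ENSMUSG00000026222, on the plus strand at chr1:85649988-85709998. It had 29.6 FPKM in the TGFBR3-labelled library and 5.62 in the vector-labelled library, from 15169 and 3931 counts. This made it 5.26-fold higher (5.08 to 5.45), with the largest log2 ratio of the 6 members on the (FPKM + 1) scale, 2.21 (2.16 to 2.25), and 67 genes above it. Sp100 stood in the third place among the members in the vector-labelled library, behind Pml and Daxx, and in the second place in the other library, ahead of Daxx. The FPKM of Sp100 relative to that of Pml was 0.246 in the vector-labelled library and 0.562 in the other, and relative to that of Daxx it was 0.412 and 1.23. Such within-library ratios do not depend on how the library totals were set.

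Sp110 is ENSMUSG00000070034, on the minus strand at chr1:85576899-85598817. Its level was 7.72 FPKM in the TGFBR3-labelled library and 1.29 in the vector-labelled library, from 3554 and 810 counts. By the plain ratio it showed the largest difference of the members, 5.98-fold (5.54 to 6.47), while the added 1 brought its log2 ratio to 1.93 (1.86 to 2.00). Sp140, whose protein reads chromatin through a PHD finger and a bromodomain, is ENSMUSG00000070031, on the plus strand at chr1:85600378-85645037. It had 9.07 and 2.19 FPKM from 2049 and 676 counts, and was 4.14-fold higher (3.79 to 4.52), with a log2 ratio of 1.66 (1.56 to 1.75). The 3 Sp100 family genes stayed at least 2-fold higher under each of the 11 ways of scaling, with lowest values of 1.80 for Sp100, 1.67 for Sp110 and 1.43 for Sp140. Their summed FPKM was 46.4 against 9.10, which was 37.3% of the FPKM of all 6 members in the TGFBR3-labelled library and 19.7% in the other.

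Daxx, the H3.3 chaperone gene, is ENSMUSG00000002307, on the plus strand at chr17:33909414-33915590. It had 24.1 FPKM in the TGFBR3-labelled library and 13.7 in the vector-labelled library, from 5152 and 3978 counts. It was 1.76-fold higher (1.69 to 1.84), with a log2 ratio of 0.78 (0.72 to 0.83), and it stayed short of 2-fold under all 11 ways of scaling, which gave 0.54 to 0.84. Its neighbour Tapbp, the gene of the class I loading factor tapasin, is annotated from 309 bases after the end of Daxx and had 128.5 and 64.8 FPKM, a log2 ratio of 0.98. Zbtb22, annotated from 314 bases after Daxx and so overlapping the interval of Tapbp, was at -0.28, and Kifc1 on the other side was at -0.09.

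Atrx, the remodeller gene, is ENSMUSG00000031229, on the minus strand at chrX:105797615-105929403. It was the member with the lowest FPKM in both libraries, at 1.29 and 0.59, although its long exons gave 1909 and 1197 counts. The plain ratio was 2.19-fold (2.03 to 2.35) and the log2 ratio of (FPKM + 1) was 0.53 (0.48 to 0.57). Its value moved more with the scaling than that of any other member. With 21757 bases of exon at 37.6% GC, Atrx fell in the longest of 20 length classes, whose median log2 ratio was 0.33, and in the lowest of 20 GC classes, whose median was 0.45. With the length trend removed its log2 ratio was 0.19, with the GC trend removed 0.08, and with both removed one after the other -0.05. The part of length and base composition in the Atrx result was not tested.

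**Figure D2:**
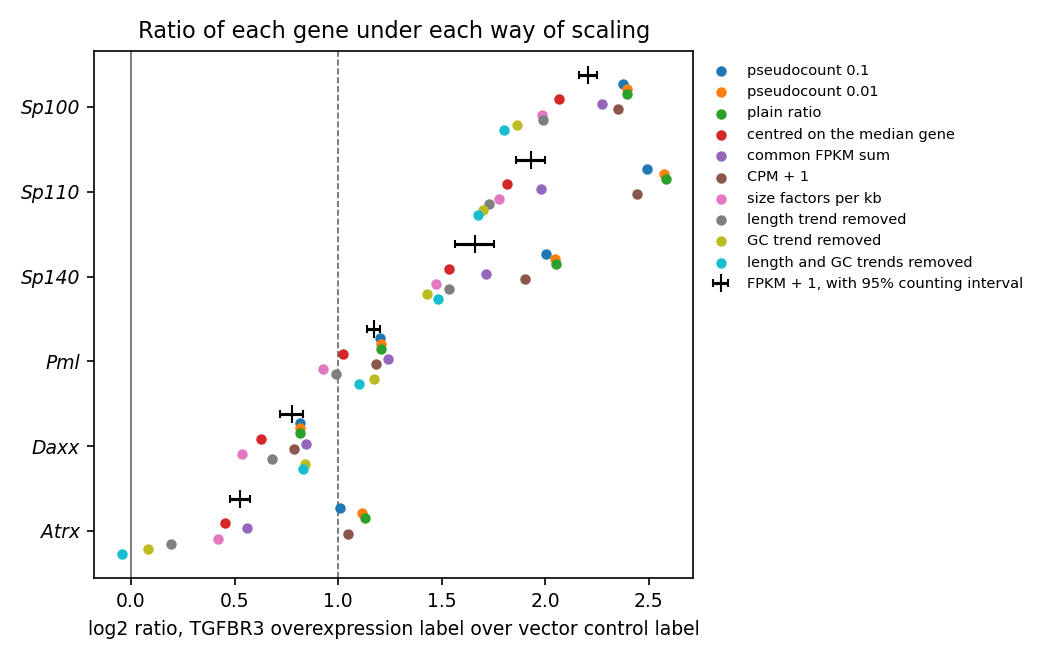
Log2 ratio of each gene, TGFBR3-labelled over vector-labelled library, under each of 11 ways of scaling; the black mark is the log2 ratio of (FPKM + 1) with its 95% counting interval, and the dashed line marks 2-fold. All points of Sp100, Sp110 and Sp140 lie right of the dashed line, those of Pml lie around it between 0.93 and 1.24, those of Daxx lie left of it, and those of Atrx spread from -0.05 to 1.13.

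The members differed from each other by more than counting error in most pairs. The plain log2 ratio was compared in all 15 pairs, from the counts, and the 95% interval of the difference left 0 in 14 of them. The same share was not computed over pairs of other genes. With counts of 676 or more such intervals are narrow, so this number cannot be read as a trait of the members. Sp110 stood above Sp100 by 0.19 (0.06 to 0.31), the smallest difference within the Sp100 family, and Sp100 above Pml by 1.19 (1.13 to 1.25). Pml stood above Daxx by 0.39 (0.32 to 0.45). The pair whose interval held 0 was Pml and Atrx, with a difference of 0.09 (-0.02 to 0.20), and removing the length and GC trends parted this pair on the (FPKM + 1) scale, to 1.10 and -0.05. These intervals do not measure how the genes would differ between cultures.

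The order of levels in FPKM was Pml, Daxx, Sp100, Sp140, Sp110 and Atrx in the vector-labelled library, and Pml, Sp100, Daxx, Sp140, Sp110 and Atrx in the other. FPKM divides by all annotated exon bases, including retained introns, which for Sp110 came to 6781 bases against 1921 in its longest coding transcript. Per kilobase of the longest coding transcript, Sp100 came first in the TGFBR3-labelled library, with 89.9 counts per kilobase and per 1000000 counts against 71.3 for Pml, and Sp110 (29.7) passed Sp140 (13.6). In the vector-labelled library Pml stayed first on that scale, at 31.3. Comparisons of level between genes thus depended on the length chosen. The plain ratio between libraries did not, while the log2 ratio of (FPKM + 1) did through the added 1: on counts per 1000000 plus 1, with no division by length, Atrx was at 1.05 and Sp110 at 2.44.

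**Figure D3:**
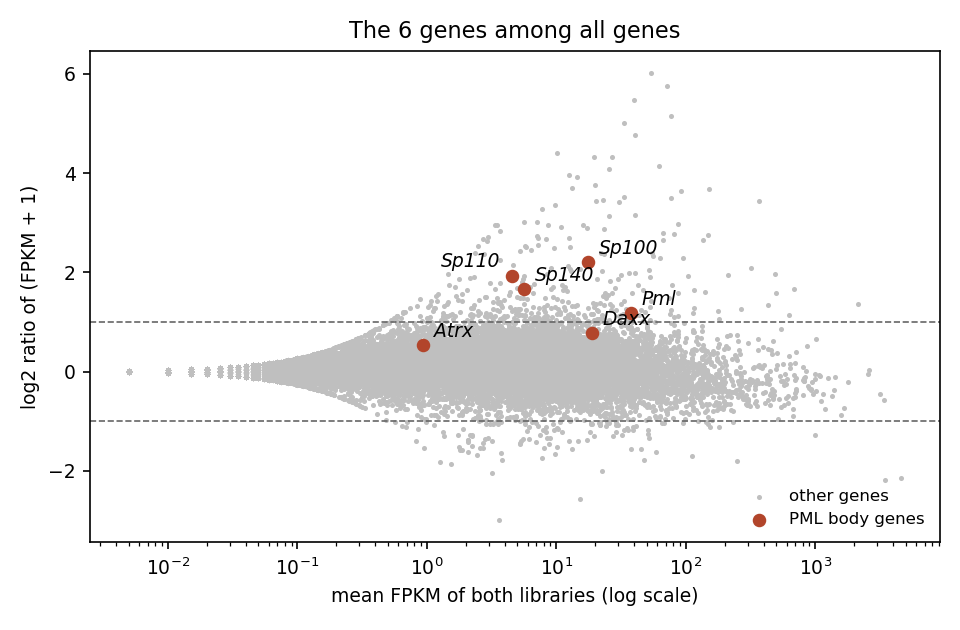
Log2 ratio of (FPKM + 1) against the mean FPKM of both libraries on a log scale, with each grey point a gene and the 6 PML body genes in red; dashed lines mark 2-fold. Sp100, Sp110, Sp140 and Pml lie above the upper dashed line, where 1.41% of all genes lie, while Daxx (0.78) and Atrx (0.53) lie below it.

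Sp110, Sp140 and Sp100 lie side by side on chromosome 1 and span 133 kb. Sp110 and Sp140 are read in opposite directions from starts 1561 bases apart, and 4951 bases separate the end of Sp140 from the start of Sp100. From C130026I21Rik to Cab39, a stretch of 859 kb, 25 of 36 annotated genes had rows, 18 had at least 10 counts in either library, and all 18 had a larger share of the counts in the TGFBR3-labelled library. Over all genes with that count the share was 62.6%. Among the 18, the intervals of Gm16026 (1.29-fold, 0.72 to 2.29) and Gm6264 (2.33-fold, 0.93 to 6.35) held equal levels. Of the 15 that are not members, 12 share at least 1% of the sequence words, stretches of 31 bases, of a member. Beyond the cluster, A630001G21Rik had 155 and 91 counts, and Cab39, a gene of no relation to the family, was 1.52-fold higher (1.46 to 1.57), from 12.8 and 8.42 FPKM.

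**Figure D4:**
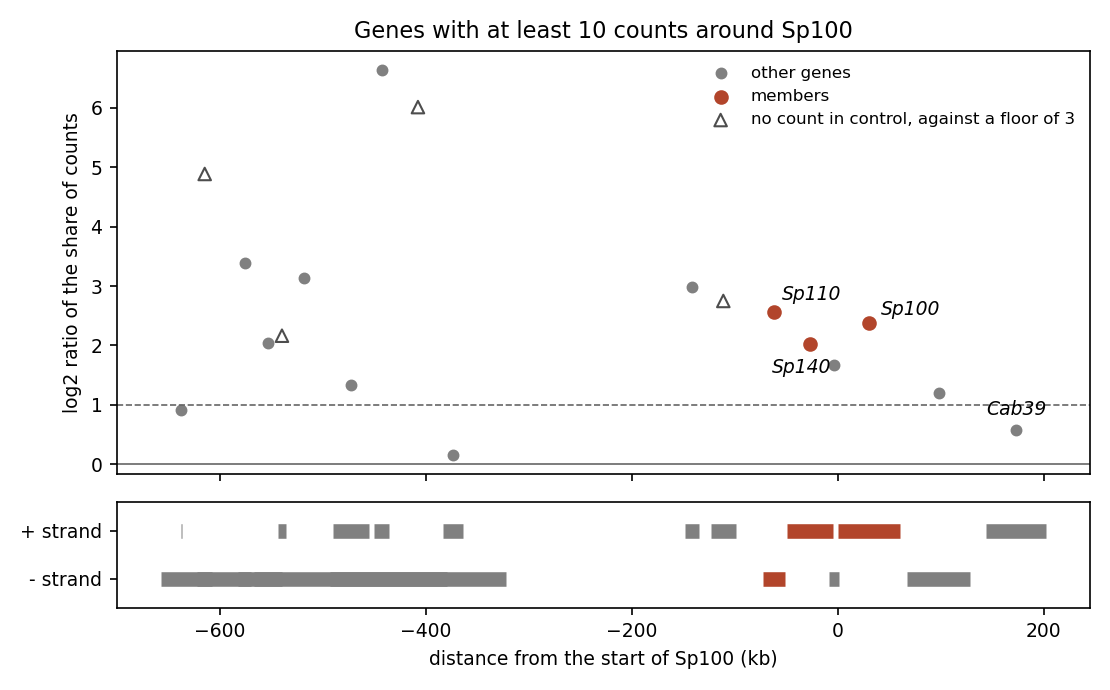
Log2 ratio of the share of counts, TGFBR3-labelled over vector-labelled library, for the 18 genes with at least 10 counts around Sp100, against distance from the start of Sp100 in kilobases; the lower panel shows each gene's extent by strand, with members in red. Open triangles are genes with no count in the vector-labelled library, set against a floor of 3 counts, and all 18 points lie above 0.

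The copies limit how far reads can be told apart within the family. Cut into words of 31 bases, the transcripts of Sp140 shared 67.8% of their words with transcripts of other genes and those of Sp110 shared 55.5%, against 9.20% for Sp100, 2.58% for Pml, 0.284% for Atrx and 0.153% for Daxx. The annotated partners holding at least 1% of a member's words included pseudogenes, antisense genes and protein-coding genes. Apart from Arhgef12, those with a row had at most 148 counts in a library. Gm16026, which holds 36.1% of the words of Sp110, had 24 and 29 counts, and Arhgef12, which holds 26.9% of those of Sp140, was itself expressed, at 9.99 and 6.01 FPKM. Genes sharing at least 1% of a member's words were then added to it where they had a row and fewer counts than the member, which left out Arhgef12. Of 7 such genes of Sp110, 5 were added, of 14 of Sp140, 10, and of 4 of Sp100, 4, and the fold of the share of counts went from 5.19 to 5.31 for Sp100, from 5.90 to 5.76 for Sp110 and from 4.07 to 4.19 for Sp140. The values of Sp110 and Sp140 are still to be read as those of a family in which the counting of shared reads is not stated. The exons of Sp140 also share 877 bases (26.4%) with the antisense gene Gm17017, which had 19 and 8 counts. Words were matched on either strand. The 67.8% of Sp140 thus includes words of Gm17017, 23.0% of those of Sp140, which overlaps its exons on the opposite strand.

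Pseudogenes that share sequence with Sp100 had counts almost only in the TGFBR3-labelled library; they were picked out after their values were seen. Gm2619 had 144 counts there and 0 in the vector-labelled library, 64.5-fold higher as a share of counts when the 0 is set to a floor of 3 counts. Gm7582 had 66 and 0 counts, 29.6-fold higher on the same floor, and Gm7609 had 148 and 2. The folds against the floor carry no interval. Sp100 itself had 3931 counts in the vector-labelled library, and its reads and those of the pseudogenes cannot be told apart over the bases they share.

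The stretches around the annotated starts of the 6 members were read for short sequence patterns. Promoter sequences of 300 bases, from 250 before the start to 50 after it, came from RefSeq on GRCm38.p6, the build also called mm10, and all 6 members matched, with 10 starts. Interferon response elements are classically described as paired GAAA half-sites with 2 bases between them, GAAANNGAAA on either strand, and this was found in the promoters of 3.99% of 27025 genes and in 0 of the 6 members. Spacings of 1 and 3 bases were searched after the members' promoters had been read: GAAANGAAA was found in 3.70% of genes and GAAANNNGAAA in 3.17%. Both occurred in Sp100 and in Sp110, overlapping so as to share 1 half-site, and in no other member, and 0.274% of genes held both. Because these spacings were taken from the members' own promoters, that share cannot say how unusual the matches are. The second RefSeq start of Sp110, 5074 bases from its GENCODE start, had no match. In Sp100 the matches ran from -47 to -37 and from -40 to -32 relative to the start, and in Sp110 from 10 to 20 and from 17 to 25, just inside the transcript. The sequences follow 5′ to 3′ on each gene's own strand, with TTTC, the reverse complement of GAAA, in capitals wherever it belongs to a match.
Sp100, chr1:85649888-85649987, plus strand, the 100 bases before the start: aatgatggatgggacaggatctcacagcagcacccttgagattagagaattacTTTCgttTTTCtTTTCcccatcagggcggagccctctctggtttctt
Sp100, chr1:85649936-85649961, plus strand, the matches with 5 bases on each side: attacTTTCgttTTTCtTTTCcccat
Sp110, chr1:85598781-85598806, minus strand, the matches with 5 bases on each side: atcacTTTCattTTTCtTTTCttgaa
Sp140, chr1:85600603-85600702, plus strand, the 100 bases before the start, with no match: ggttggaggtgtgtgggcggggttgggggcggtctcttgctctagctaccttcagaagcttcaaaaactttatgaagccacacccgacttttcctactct
Pml, chr9:58249787-58249886, minus strand, the 100 bases before the start, with no match: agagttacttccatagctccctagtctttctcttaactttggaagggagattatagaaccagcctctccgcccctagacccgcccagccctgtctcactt

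Compared base by base, the Sp100 and Sp110 windows were identical at 20 of 26 bases. They had been lined up on the matches, so the 12 capital bases were identical by construction, and of the 14 others 8 were. The RefSeq start of Sp140 lies 325 bases inside the start in the GENCODE annotation, so its window does not cover the sequence before the outermost start. A match of letters is not a site of binding, and the absence of a match in these windows says nothing of a factor. The promoters of Daxx, with 33 CpG in 300 bases at 69.7% GC, differed in make-up from those of Sp100, with 2 CpG at 47.7% GC.

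Other genes of PML body biology were described from lists chosen by function. Of 16 clients and regulators of the bodies, all 16 had a higher level in the TGFBR3-labelled library, with a median log2 ratio of 0.56 against 0.03 over all genes and 0.14 over genes whose mean reached 1 FPKM. Of the latter genes, 63.1% were above 0, or 51.4% once centred, and the counts of higher genes in the lists are to be read against these shares. Mdm2, the ubiquitin ligase of p53, was the 1 gene of the list past 2-fold, at 75.6 and 29.9 FPKM with a log2 ratio of 1.31 (1.28 to 1.34). It was followed by Eif4e (0.91), the cap-binding translation factor, Topors (0.89), a SUMO and ubiquitin ligase, and Usp7 (0.72), a deubiquitinase. With the length and GC trends removed the median of this list was 0.28 and 5 of the 16 were below 0.

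Genes of the SUMO pathway, which supplies the modifier that holds the bodies together, differed less than the members did. Of 18 genes, 17 were higher and 1 lower in the TGFBR3-labelled library, where 63.1% of expressed genes were higher, and 0 were past 2-fold, with a median log2 ratio of 0.27 that became 0.14 when centred on the median gene and 0.05 with both trends removed. Sumo2 had the largest log2 ratio at 0.84 (0.76 to 0.91), from 23.9 and 13.0 FPKM. The SUMO proteases Senp2 (0.67) and Senp5 (0.60) and the SUMO-targeted ubiquitin ligase Rnf111 (0.59) came next.

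Genes that work with Daxx and Atrx in placing H3.3 or in silencing were close to the median gene. Of 12 such genes, 9 were higher and 3 lower, near the 63.1% of expressed genes, with 0 past 2-fold. Their median log2 ratio was 0.24, and it was 0.11 centred and -0.02 with both trends removed. The histone chaperone genes Asf1a (0.51) and Nasp (0.49), the H3.3 gene H3f3b (0.44) and the H3K9 methyltransferase gene Setdb1 (0.30) had the largest ratios.

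Among 8 other genes with a SAND domain or likeness to SP100, 4 were higher and 4 lower, with 0 past 2-fold and a median log2 ratio of 0.02. A630001G21Rik (0.44) and A530032D15Rik (0.37) had the largest ratios, both at an FPKM under 1 and both in the Sp100 neighbourhood on chromosome 1. The transcription factor genes Deaf1 (-0.28) and Gmeb2 (-0.13), which carry a SAND domain but lie elsewhere, were lower. By the plain ratio, 3 of the 6 genes with an FPKM above 0 in both libraries were at least 2-fold higher. Over the 17471 genes with such an FPKM and at least 10 counts in either library, the share was 13.8%. The median log2 of the 6 was 0.57, against 0.22 over those 17471 genes. The 3 were A530032D15Rik (4.56-fold, 2.5 to 8.78), A630001G21Rik (2.33-fold, 1.79 to 3.06) and C130026I21Rik, with 13 and 2 counts (5.00-fold, 1.13 to 45.6). A530032D15Rik shares 52.1% of its 31-base words with other genes, 40.6% with Sp140, so its 46 and 15 counts may hold reads of that member.

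Genes of interferon transcription factors were read beside the members. Stat2 had 48.5 and 17.6 FPKM, a log2 ratio of 1.41 (1.38 to 1.44). Irf9, which encodes its DNA-binding partner, was at 0.97 (0.93 to 1.01), and Irf1 was at 0.71 (0.65 to 0.77). Of the members, Sp100, Sp110 and Sp140 stood above Stat2, Pml between Stat2 and Irf9, Daxx between Irf9 and Irf1, and Atrx below Irf1. The place of Atrx depended on the added 1. By the plain log2 ratio Atrx (1.13) stood above Irf9 (1.02) and Irf1 (0.76). With 2 libraries no association between these genes and the members could be examined.

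**Figure D5:**
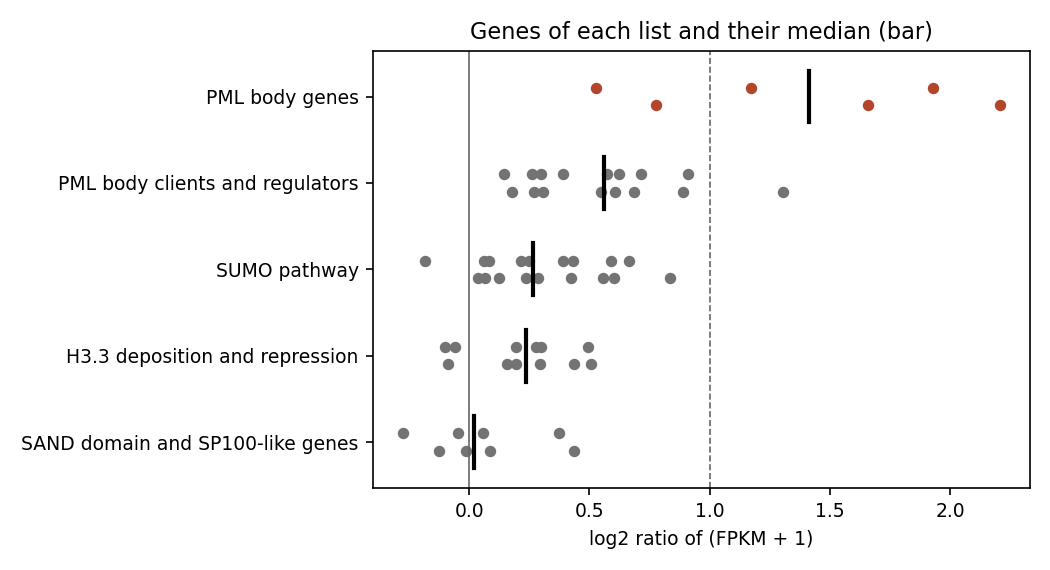
Log2 ratio of (FPKM + 1) of each gene in 5 lists, with the list median as a black bar; solid and dashed lines mark equal levels and 2-fold. The medians are 1.41 for the PML body genes, 0.56 for clients and regulators, 0.27 for the SUMO pathway, 0.24 for H3.3 deposition and repression and 0.02 for SAND domain and SP100-like genes.

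The genes closest to Pml in log2(FPKM + 1) over both libraries, of all protein-coding genes that are not members, were Ubap1 (49.7 and 22.2 FPKM), Psme2b (48.4 and 23.4), which has a near-identical copy in Psme2, Gla (50.3 and 20.95), Masp1 (51.1 and 25.1) and Grem1 (49.1 and 20.9). Their distances from Pml were 0.09 to 0.16. With 1 library per condition this likeness rests on 2 values per gene.

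Sp110 and Sp140 are also known from cells of the immune system, and markers of other cell types were read beside them. The FAPs had been sorted by flow cytometry before culture, by the study's methods, which list antibodies to CD31 and CD45, surface markers of endothelial and blood cells. The 9 macrophage markers held 244 counts in the TGFBR3-labelled library and 245 in the other, 3.92 and 2.92 per 1000000 counts. Csf1r had 182 and 210 counts, Laptm5 35 and 19, C1qb 20 and 0 and C1qc 7 and 4. C1qa had 0 and 8 counts and Ptprc 0 and 4, while Adgre1, Tyrobp and Fcer1g were at 0 in both. The macrophage marker with the highest FPKM was Csf1r, at 0.46 in the TGFBR3-labelled library and 0.39 in the other. Sp110 was at 7.72 and 1.29 FPKM and Sp140 at 9.07 and 2.19. Lck, the T cell marker with a row, had 60 and 26 counts, an FPKM of 0.29 and 0.09, and Cd79a of B cells had 5 and 6 counts; Cd3d, Cd3e, Cd3g, Cd8a, Cd2, Cd79b and Ms4a1 were not analysed here. The 6 endothelial markers summed to 3.52 and 3.58 FPKM, with 2 higher in the TGFBR3-labelled library, 3 lower and 1 equal. Kdr had 262 and 65 counts, Pecam1 24 and 8, Cdh5 165 and 328 and Tie1 0 in both. Egfl7 was at 1.42 and 1.56 FPKM and Tek at 1.04 and 1.09. Des of muscle cells was at 1.13 and 0.75 FPKM. The 4 adipocyte markers that were measured were all lower in the TGFBR3-labelled library, with Adipoq at 5.69 and 13.0 FPKM and Plin1 at 1.15 and 1.98. The part of the adipocyte share of the cultures in the results for the members was not tested.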

How the data were processed

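RNA-seq of 2 libraries was used, 1 per condition, and samples were grouped by title. The authors deposited, per gene, raw counts and FPKM rounded to 2 decimals. The study's methods name STAR and FeatureCounts on mm10, while the submitters' processing notes name cutadapt 1.9, HISAT2 2.2.1, StringTie 2.1.6, DESeq2 and edgeR; which of them made the tables was not settled. The libraries are stranded by the protocol, and whether counting used strand, like the annotation release, is not given in the sources used here. Of 26082 gene IDs, 26012 were in GENCODE M21, whose merged exons gave lengths, GC content and neighbours. The deposited FPKM of 98.8% and 98.9% of well-counted genes lay within 1% of count over exon length and a single total.

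The measure was the log2 ratio of (FPKM + 1), with 2-fold as the threshold. With 1 library per condition no test was possible and no p-value is given. Intervals are 95% exact Clopper-Pearson intervals of how a gene's counts divided between the libraries, put on the ratio's scale (for pairs of members, large-sample intervals of the ratio of counts). The study's methods name a KC-Digital Stranded mRNA library kit. They do not say whether molecular identifiers were used to remove duplicate reads, so intervals and the floor of 3 counts cover counting error only. Trends over length and GC were medians in 20 classes of equal size. Python 3.11.15, scipy 1.17.1, numpy 2.4.6 and pandas 2.3.3 were used.

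Named genes were Tgfbr3, the 6 members, up to 4 genes with the largest absolute ratio per list among those with at least 10 counts, cell type markers, the 5 genes nearest to Pml and genes beside or sharing sequence with a member. The members and lists were chosen with earlier results of these data known. Some members of the interferon and B cell lists are not reported here.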

Additional observations from a re-analysis of the deposited data

How the results depend on the processing

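Of the 6 members, 4 were at least 2-fold higher with a pseudocount of 1, and 1 (Sp100) was at least 4-fold higher. Over 11 ways of scaling Pml ranged from 0.93 to 1.24 (past 2-fold under 9), Sp100 from 1.80 to 2.40, Sp110 from 1.67 to 2.58, Sp140 from 1.43 to 2.05, Daxx from 0.54 to 0.84 and Atrx from -0.05 to 1.13 (past 2-fold under 4). Genes 2-fold higher and lower, 369 and 124 at first, numbered 2061 and 798 with a pseudocount of 0.1, 4933 and 2750 with 0.01, 2926 and 1080 by plain ratio, 2417 and 905 by plain ratio with at least 10 counts, 638 and 197 on counts per 1000000, and 242 and 275 with size factors per kilobase. Centring left 194 lower. At 1.5-fold they numbered 1685 and 608, and at 4-fold 77 and 6. Atrx turned to -0.045 with both trends removed, as did the H3.3 list's median, to -0.018. The median of SAND domain and SP100-like genes turned to -0.085 with the length trend removed, -0.16 with the GC trend removed and -0.076 with both. The causes were not tested. The filter on the plain ratio, the removal of both trends together, the added counts of sharing genes and the spacings of 1 and 3 bases were chosen after seeing the data. No paired analysis was possible because each condition is 1 library, and for the same reason no library could be left out. Depth was not the limit for the members, whose lowest count was 676.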
